A study of Homo sapiens with 6 samples.

Results

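Creatine kinase and creatine supply genes are a set of 7 genes in a count table of 58721 genes from A549, a cell line established from a human lung adenocarcinoma. They were chosen by function, with the rise of CKB in R98W against WT known from the same 6 libraries, and comprise the cytosolic brain-type creatine kinase CKB, the mitochondrial creatine kinases CKMT1A, CKMT1B and CKMT2, the creatine synthesis enzymes GATM and GAMT, and the creatine transporter SLC6A8. All 7 passed the filter on low counts and are among the 20713 genes tested. Per the labels, cells of 3 libraries overexpressed the wild-type histone acetyltransferase KAT8, also called MOF (the WT group), and cells of the other 3 overexpressed KAT8 with the amino acid substitution R98W. The labels state neither a clone, a vector nor a treatment. Both groups were grown in DMEM with serum, and no label names a loss of the cells' own KAT8 gene. The set was drawn up with the R98W against WT results in view, so all differences between the groups below are descriptions of its members, given with an error. The members' calls in the fit of all genes are listed, but nothing is read from them.

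Creatine kinases move a phosphate group between ATP and creatine. The mitochondrial enzymes make phosphocreatine where ATP is produced, and the cytosolic enzymes use it to restore ATP where energy is spent, which is best known in muscle and brain. Creatine itself is made in 2 steps: GATM joins arginine and glycine into guanidinoacetate, releasing ornithine, and GAMT adds a methyl group from S-adenosylmethionine. Cells can also take creatine up from outside through SLC6A8.

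The libraries held between 90007121 and 110152936 counts. Levels are in CPM, a gene's counts relative to the library total as scaled by edgeR's TMM factors, and SE is the standard error of a log2 fold change of R98W over WT. KAT8 was at 12.2 CPM in the library labelled WT replicate 1, at 195 and 184 CPM in WT replicates 2 and 3, and between 166 and 236 CPM in R98W. That library therefore goes against its overexpression label. Values without it are given below for the 7 members and for counts of higher and lower genes. All 10 epithelial and A549 markers were at 1 CPM or more in every library, and CDKN2A, which is deleted in A549, had a count of 0 in every library. Of 12 muscle markers, 9 averaged under 0.1 CPM, and MYH2, MYH7 and MYOG had no count. Their summed level ran from 7.33 to 8.12 CPM in WT and from 4.69 to 4.81 CPM in R98W, mostly from MB and TTN. Of 8 neuron markers, GAD2 and STMN2 had no count, while the summed level was 40.7 to 44.2 CPM in WT and 43.7 to 47.7 CPM in R98W, mostly from RBFOX3. The part of these markers' changes in the creatine gene values was not tested. In bulk RNA, fewer cells of a type and less RNA per cell cannot be told apart.

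CKMT1A and CKMT1B (chromosome 15, 43692886 to 43699222 and 43593054 to 43604901, hg38) are nearby copies that both encode the ubiquitous mitochondrial creatine kinase. Their coding sequences of 1251 bases differed at 2 bases in the GENCODE release 29 transcripts, an identity of 99.84%. The stretches around both differences are shown because they hold the only coding positions at which these transcripts of the copies differ. They lie in exon 8 of 9 of the CKMT1A transcript and exon 9 of 10 of the CKMT1B transcript, on the plus strand of hg38, and both differences are at position 3 of a codon. In the first 2 lines the capital marks G1056A, and in the last 2 it marks C1086T, with the CKMT1A base first, counted from 1 at the start codon.
CKMT1A, chr15:43698665-43698705: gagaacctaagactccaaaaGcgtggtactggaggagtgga
CKMT1B, chr15:43598851-43598891: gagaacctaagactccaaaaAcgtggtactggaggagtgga
CKMT1A, chr15:43698695-43698735: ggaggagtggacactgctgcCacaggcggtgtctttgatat
CKMT1B, chr15:43598881-43598921: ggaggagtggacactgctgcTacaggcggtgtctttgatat

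Of all 100-base windows of the CKMT1A transcripts, 64.51% also occur in CKMT1B, and 53.99% of those of CKMT1B occur in CKMT1A. How the counting treated reads that match both copies is not given in the sources used here, so the level of each copy is uncertain and their sum is given beside them. If such reads were dropped, the sum is too low as well. The other members shared few such windows with any gene, 0.0% for CKB, CKMT2 and GAMT, 4.14% for GATM and 1.84% for SLC6A8. CKB is less alike, with 67.1% of aligned coding bases identical between CKB and CKMT1A.

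CKB (ENSG00000166165, chromosome 14, 103519659 to 103523111, minus strand) was the most abundant member and the one that differed most. It stood at 44.3, 36.0 and 35.6 CPM in WT replicates 1 to 3 and at 82.0, 81.7 and 94.8 CPM in R98W replicates 1 to 3. Each R98W library lay above each WT library, and the highest WT value was that of the library labelled WT replicate 1. The mean went from 38.7 ± 4.90 CPM in WT to 86.2 ± 7.47 CPM in R98W (SD, n = 3), which is 2.23-fold, or 1.16 on the log2 scale (SE 0.09). With WT replicate 1 left out it was 1.26 (SE 0.08). Among the 4260 tested genes within a factor of 2 of CKB's mean level, 0 had a larger log2 fold change, and their median was 0.07. The rise of CKB was known when the set was drawn up, so this rank only describes it.

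Both CKMT1 genes had lower means in R98W, by like amounts on the log2 scale, with libraries that did not overlap for CKMT1B and did for CKMT1A, and CKMT2 was barely detected. CKMT1B stood at 6.19, 7.72 and 7.15 CPM in WT replicates 1 to 3 and at 4.78, 3.75 and 3.70 CPM in R98W replicates 1 to 3, without overlap. Its mean was 7.02 ± 0.775 CPM in WT and 4.07 ± 0.609 CPM in R98W (SD, n = 3), and the log2 fold change was -0.79 (SE 0.13). CKMT1A was at 0.874, 1.65 and 1.25 CPM in WT and at 0.570, 1.01 and 0.853 CPM in R98W. These ranges overlapped, because the library labelled WT replicate 1 lay under R98W replicate 2, and the log2 fold change was -0.64 (SE 0.27). Without that library the value was -0.85 (SE 0.27), and without WT replicate 2 it was -0.40 (SE 0.29). CKMT1A gave between 10.7% and 21.3% of the counts of the pair, with ranges that overlapped between the groups.

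A division of reads between the copies has no effect on their sum, but reads dropped for matching both would be missing from it. The counted sum for the ubiquitous mitochondrial creatine kinase was at 7.06, 9.37 and 8.41 CPM in WT replicates 1 to 3. In R98W replicates 1 to 3 the sum was 5.35, 4.76 and 4.55 CPM, under every WT value. The mean went from 8.28 ± 1.16 CPM in WT to 4.89 ± 0.414 CPM in R98W (SD, n = 3). The log2 fold change was -0.76 (SE 0.13), or -0.88 (SE 0.12) without the library labelled WT replicate 1. The nearest protein-coding gene before CKMT1B, the inositol pyrophosphate kinase PPIP5K1, 2801 bases away, fell, at 12.7 ± 0.842 CPM in R98W against 17.5 ± 1.52 CPM in WT (log2 fold change -0.46, SE 0.09, edgeR adjusted p = 0.000678). On either side of CKMT1A, the nearest protein-coding genes were CATSPER2 (log2 fold change -0.43, SE 0.28, edgeR adjusted p = 0.245) and PDIA3 (-0.15, SE 0.07, edgeR adjusted p = 0.11). STRC, which overlaps CKMT1B on the other strand, had at most 7 counts in a library.

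CKMT2, the sarcomeric mitochondrial kinase of heart and skeletal muscle (chromosome 5, 81233285 to 81266397), was close to the limit of the counting. Its counts were 24, 19 and 5 in WT replicates 1 to 3 and 16, 6 and 21 in R98W, which is 0.0527 to 0.241 CPM over the 6 libraries. The groups overlapped fully, and the log2 fold change of -0.11 has a 95% confidence interval from -1.38 to 1.15. It lies within the antisense gene CKMT2-AS1, which was more abundant and fell from 4.29 ± 0.691 to 2.46 ± 0.370 CPM (log2 fold change -0.80, edgeR adjusted p = 0.000645), and the strand setting of the counting is not given. CKM, the muscle cytosolic kinase and no member of the set, had 0 to 3 counts per library.

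**Figure D1:**
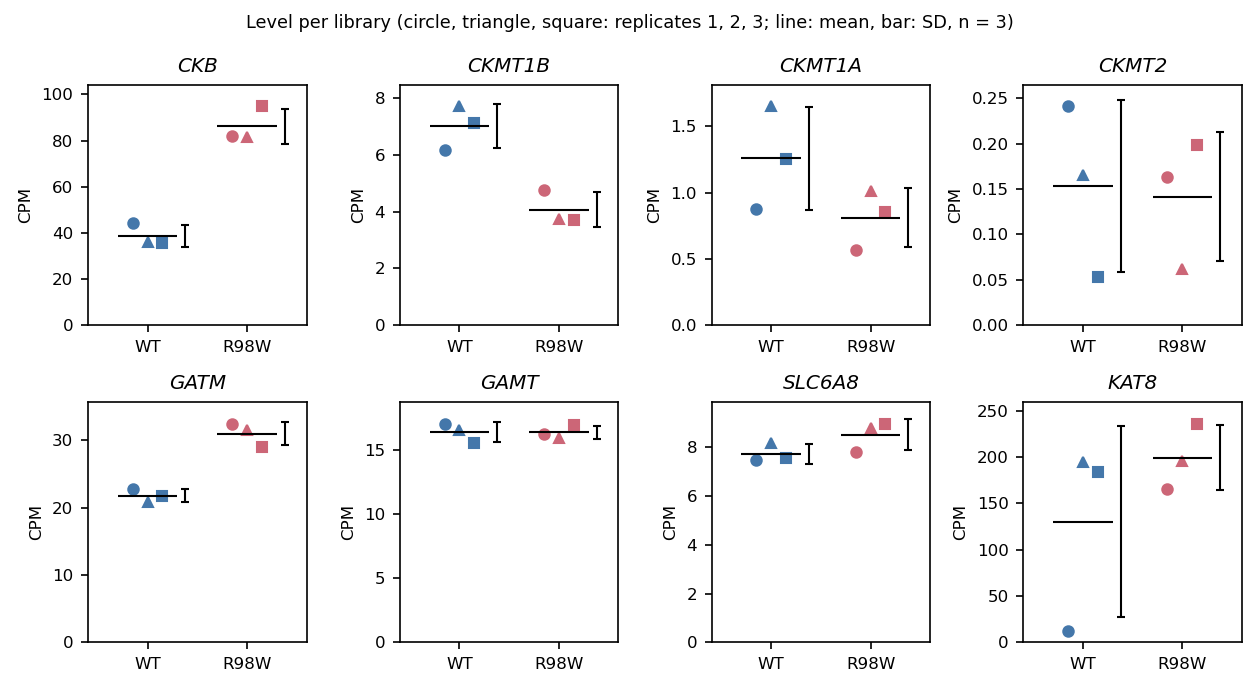
CPM of the 7 genes and of KAT8 in each library, WT in blue and R98W in red, with circle, triangle and square for replicates 1, 2 and 3, a line at the mean and a bar of ± 1 SD (n = 3). CKB and GATM are higher and CKMT1B is lower in all 3 R98W libraries, whereas CKMT1A, CKMT2, GAMT and SLC6A8 overlap. KAT8 is low in the library labelled WT replicate 1, at 12.2 CPM.

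The synthesis enzymes differed from each other. GATM (ENSG00000171766, chromosome 15, 45361124 to 45402327, minus strand), the first enzyme, was at 22.8, 20.8 and 21.8 CPM in WT replicates 1 to 3 and at 32.5, 31.5 and 29.1 CPM in R98W replicates 1 to 3. All R98W libraries lay above all WT libraries, and replicates agreed to within a coefficient of variation of 4.74% in WT and 5.72% in R98W. The mean went from 21.8 ± 1.03 CPM in WT to 31.0 ± 1.78 CPM in R98W (SD, n = 3), which is 1.42-fold. On the log2 scale this was 0.51 (SE 0.08), and 0.53 (SE 0.08) without the library labelled WT replicate 1. SPATA5L1 lies 4 bases beyond the end of the annotated GATM locus at 45402327, whereas the RefSeq start of GATM used below is at 45378544. SPATA5L1 stood at 7.46 ± 0.747 CPM in WT and 7.34 ± 0.538 CPM in R98W (log2 fold change -0.03, edgeR adjusted p = 0.891).

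GAMT (ENSG00000130005, chromosome 19, 1397026 to 1401570, minus strand), the second enzyme, was at 17.1, 16.6 and 15.6 CPM in WT replicates 1 to 3. In R98W replicates 1 to 3 it was at 16.3, 16.0 and 17.0 CPM, inside the WT range. Both means were 16.4 CPM, with SDs of 0.742 in WT and 0.561 in R98W (n = 3), and the 95% confidence interval of the log2 fold change ran from -0.18 to 0.17. A change of GAMT as large as that of GATM lies outside this interval.

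SLC6A8, the creatine transporter (ENSG00000130821, chromosome X, 153688099 to 153696593, plus strand), was at 7.46, 8.19 and 7.55 CPM in WT replicates 1 to 3 and at 7.80, 8.80 and 8.97 CPM in R98W replicates 1 to 3. The lowest R98W value lay under the highest WT value. Means were 7.74 ± 0.397 and 8.53 ± 0.633 CPM (SD, n = 3), with a log2 fold change of 0.14 (SE 0.11) and a 95% confidence interval from -0.08 to 0.36. Its partial copy SLC6A10P had at most 16 counts in a library.

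In the fit of all genes, CKB and GATM were past the edgeR threshold (adjusted p under 0.05) as higher, CKMT1B as lower, and the other 4 members were not past it. CKMT1A was also past it as lower without the library labelled WT replicate 1, without R98W replicate 2 and with the replicate number as a block, which makes 2 lower. With all 6 libraries that is 2 of 7 members higher and 1 lower, where 34.8% of all tested genes were past the threshold, 16.2% higher and 18.5% lower. Without the library labelled WT replicate 1, 3268 of 21443 tested genes were higher and 3944 lower. Groups did not overlap in 3 of the 7 members and in 45.6% of all tested genes. The median log2 fold change of the 7 was 0.00, against -0.00465 over all tested genes. Nothing is read from these counts, since the comparison was known when the genes were listed.

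**Figure D2:**
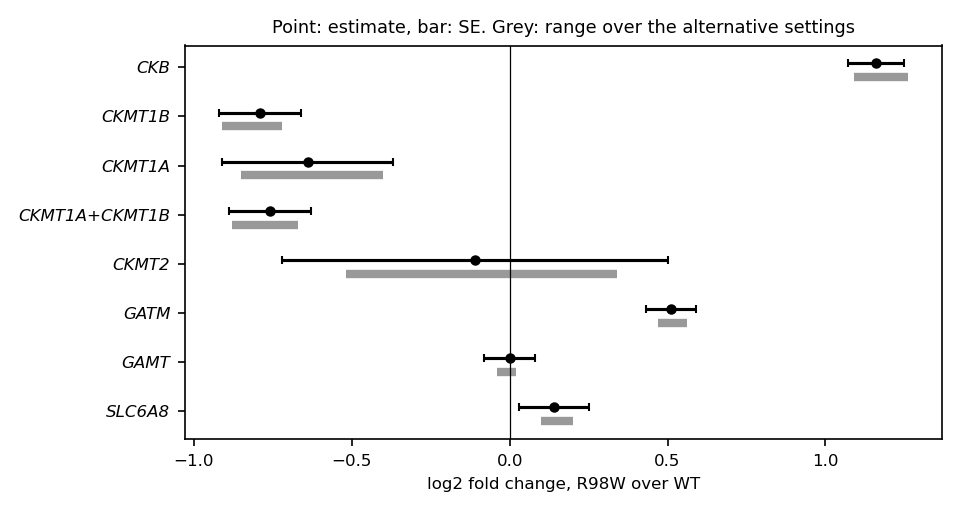
Log2 fold change of R98W over WT for each gene and for the sum of CKMT1A and CKMT1B; points are estimates, black bars are ± 1 SE, and grey bars are the range over the alternative settings of the fit. CKB runs from 1.09 to 1.26, GATM from 0.47 to 0.56 and CKMT1B from -0.91 to -0.72 over these settings, while CKMT2 spans 0.

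Levels of different genes can be compared per length, here as CPM per kilobase of annotated exon. In WT the order was CKB at 14.5 ± 1.83 CPM per kilobase, GAMT at 6.84 ± 0.309, GATM at 3.28 ± 0.156, CKMT1B at 2.02 ± 0.223, SLC6A8 at 1.41 ± 0.0722, CKMT1A at 0.405 ± 0.125 and CKMT2 at 0.0559 ± 0.0346 (SD, n = 3). No neighbours in this order overlapped between their library values. In R98W CKB reached 32.3 ± 2.80, followed by GAMT at 6.84 ± 0.233 and GATM at 4.67 ± 0.267 CPM per kilobase. SLC6A8 at 1.55 ± 0.115 then lay above CKMT1B at 1.17 ± 0.176, again with no overlap between their libraries. The CKMT1 sum does not rest on the split of reads between the copies, although reads dropped for matching both would be missing from it. In WT the sum was 2.43 ± 0.348 CPM per kilobase, and SLC6A8 was lower. In R98W the sum was 1.56, 1.41 and 1.34 CPM per kilobase in replicates 1 to 3, and SLC6A8 overlapped it. Per length, CKB lay above 86.2% of the 19922 protein-coding genes in WT and above 93.9% in R98W. GATM lay above 60.7% and 67.2%, and SLC6A8 above 50.4% and 52.6%. No filter on level was applied to these 19922 genes, and even CKMT2, with 5 to 24 counts in WT libraries, lay above 30.7% of them in WT.

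The make-up of the counted creatine kinase transcripts shifted toward CKB. Of the summed per-length level of CKB, CKM, CKMT1A, CKMT1B and CKMT2, CKB made up 88.5%, 82.7% and 84.2% in WT replicates 1 to 3 and 95.0%, 95.5% and 96.1% in R98W replicates 1 to 3. The CKMT1 pair made up 11.0%, 16.9% and 15.6% in WT and 4.82%, 4.39% and 3.62% in R98W. CKMT2 stayed under 0.5% in each library. The per-length level of CKB was 6.12 ± 1.69 times that of the CKMT1 pair in WT and 22.7 ± 3.50 times in R98W (SD, n = 3), and the summed level itself was 17.0 ± 1.56 and 33.8 ± 2.75 CPM per kilobase. The library labelled WT replicate 1 had the highest ratio of the WT libraries, 8.04, and the lowest in R98W was 19.7. Reads dropped in counting for matching both CKMT1 copies would make the CKMT1 level too low, and CKB's shares and ratios too high.

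**Figure D3:**
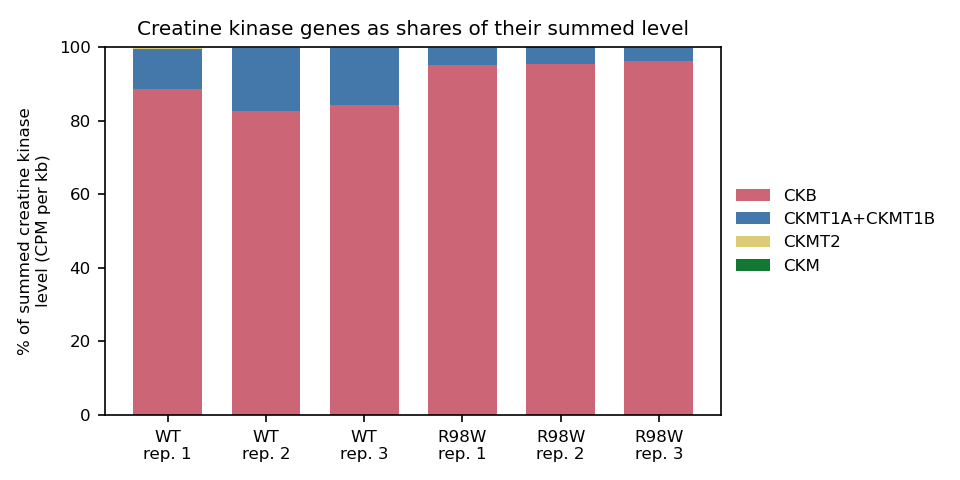
Share of each creatine kinase gene in the summed level of the 5 creatine kinase genes, in % of CPM per kilobase of exon, 1 bar per library. CKB takes between 82.7% and 88.5% in WT and between 95.0% and 96.1% in R98W. CKMT2 and CKM are too small to see in most bars. Reads dropped for matching both CKMT1 copies would make CKB's share too high.

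CKB and GATM were the 2 members that were higher in R98W, and the sequences just before their RefSeq starts are shown to let a reader compare them (GRCh38.p14, the same genome assembly as hg38; 120 bases, both on the minus strand). Capitals mark CCAAT and TATAAA, searched on both strands.
CKB, chr14:103522831-103522950: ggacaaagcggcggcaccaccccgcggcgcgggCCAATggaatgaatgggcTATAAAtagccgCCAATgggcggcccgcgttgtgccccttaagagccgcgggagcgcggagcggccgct
GATM, chr15:45378545-45378664: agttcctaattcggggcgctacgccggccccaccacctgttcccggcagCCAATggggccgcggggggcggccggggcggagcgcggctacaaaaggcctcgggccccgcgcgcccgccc

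In the 250 bases before the start, CKB held 2 CCAAT matches, beginning 87 and 57 bases before it, and 1 TATAAA match beginning 69 bases before it. GATM held 1 CCAAT match beginning 71 bases before its start and no TATAAA. Among 35116 RefSeq promoters, 32.0% held CCAAT and 10.7% held TATAAA on either strand in the same window. Members that were not higher in R98W held such matches too. CKMT2, which overlapped between the groups, held 1 CCAAT match beginning 67 bases and 1 TATAAA match beginning 146 bases before its start, and CKMT1A held 2 CCAAT matches at 1 of its 5 RefSeq starts. CKMT1B, which was lower in R98W, held neither at its 2 starts, nor did SLC6A8, which overlapped. The GC box GGGCGG was also searched on both strands. It was found 4 times before CKB, 3 times before GATM and 4 times before SLC6A8, while 42.6% of the promoters held it. Before the 5 CKMT1A starts it was found 0, 0, 2, 4 and 2 times. Before the 2 CKMT1B starts it was found 0 and 1 times, and before CKMT2 1 time. GC made up 70.8% of the CKB window, 72.8% of that of GATM and 76.4% of that of SLC6A8, against a median of 58.0% over all promoters. These matches describe the letters only.

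Other genes around the pathway were counted from 4 lists. For comparison with each list, 16.2% of all tested genes were higher and 18.5% lower, and their median log2 fold change was -0.00465. Among kinases and carriers that move phosphate groups and adenine nucleotides, 11 of 20 tested members rose, 3 fell and 6 were not past the threshold, with a median log2 fold change of 0.26. AK6, an adenylate kinase, rose from 20.4 ± 0.374 to 28.3 ± 1.22 CPM (SD, n = 3; log2 fold change 0.47, SE 0.08, edgeR adjusted p = 9.24e-05), although it shares its locus with TAF9 and reads between them are uncertain. The UMP-CMP kinase CMPK1 rose by 0.46 on the log2 scale, to 278 ± 11.8 CPM. VDAC1, the outer mitochondrial membrane channel to which mitochondrial creatine kinase is known to dock, rose by 0.36, from 402 ± 25.1 to 516 ± 7.59 CPM. The falls were all in adenylate kinases, but the family went both ways. Like AK6, AK4 and AK5 rose, by 0.31 (edgeR adjusted p = 0.00748) and 0.54 (edgeR adjusted p = 0.0016) on the log2 scale. AK9 went from 3.41, 4.39 and 5.24 CPM in WT replicates 1 to 3 to 1.55, 1.61 and 1.12 CPM in R98W replicates 1 to 3, or -1.61 on the log2 scale (SE 0.18, edgeR adjusted p = 2.12e-06). AK8, which with AK7 is known from cilia, fell by 2.92 on the log2 scale (SE 0.37, edgeR adjusted p = 5.85e-06), reaching 0.130 ± 0.0574 CPM in R98W, and it overlaps SPACA9 on the other strand.

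Genes that supply or use the arginine, glycine and ornithine of the first step went both ways, with 9 of 27 tested members higher, 5 lower and 13 not past the threshold (median 0.08). SLC6A9, a glycine transporter, rose from 9.23 ± 1.25 to 14.8 ± 2.02 CPM (log2 fold change 0.68, SE 0.12, edgeR adjusted p = 0.000144). Ornithine aminotransferase OAT rose by 0.35, the antizyme inhibitor AZIN1 by 0.26 and DDAH1, which degrades methylated arginines, by 0.36 on the log2 scale. ALDH18A1, which makes the proline and ornithine precursor pyrroline carboxylate, fell by 0.31 from 122 ± 5.49 CPM in WT (edgeR adjusted p = 0.000968). The number of falls moved with single libraries, to 3 without WT replicate 2 or WT replicate 3 and to 2 without R98W replicate 2 or R98W replicate 3.

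In the methionine cycle, which regenerates the S-adenosylmethionine that GAMT uses, 7 of 16 tested members rose, 2 fell and 7 were not past the threshold (median 0.13). AMD1, which takes S-adenosylmethionine toward polyamines, had the smallest p of this list and rose from 212 ± 8.27 to 293 ± 3.32 CPM (log2 fold change 0.47, SE 0.06, edgeR adjusted p = 1.06e-05). The transsulfuration enzymes CBS and CTH rose by 0.51 and 0.47, and MAT2B, a regulatory subunit of methionine adenosyltransferase, by 0.24 on the log2 scale. The count of falls was 1 without each library except WT replicate 1.

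Of the other SLC6 transporters and proposed creatine efflux carriers, 10 of 19 could be tested, and 2 rose, 2 fell and 6 were not past the threshold (median -0.13). SLC6A6, the taurine transporter, rose from 346 ± 40.0 to 412 ± 14.8 CPM, and it was not past the threshold when WT replicate 3 (edgeR adjusted p = 0.101) or R98W replicate 2 (adjusted p = 0.0638) was left out. SLC16A12, a carrier known to export creatine, was at 0.191, 0.435 and 0.274 CPM in WT replicates 1 to 3 and at 0.479, 0.641 and 0.739 CPM in R98W, without overlap (log2 fold change 1.03, SE 0.36, edgeR adjusted p = 0.0308). This low-level rise was lost in 4 of the fits that leave out a library, with adjusted p of 0.113 without the library labelled WT replicate 1. SLC16A9, a related carrier, fell from 2.81 ± 0.280 to 1.44 ± 0.0871 CPM (log2 fold change -0.97, SE 0.17, edgeR adjusted p = 0.000164). SLC6A16, an orphan family member, fell by 0.41 on the log2 scale (edgeR adjusted p = 0.0425) and was past the threshold in 5 of 13 alternatives, with adjusted p from 0.0342 to 0.146. By edgeR, rises in this list numbered 4 without WT replicate 2, 1 without WT replicate 3 or R98W replicate 3 and 0 without R98W replicate 2, where 2 were higher at an unadjusted p under 0.05. Falls numbered 1 without each library other than WT replicate 1. Over all 4 lists 29 of 73 tested genes were higher and 12 lower, where 16.2% and 18.5% of all tested genes were. These shares vary with level. Among tested genes within a factor of 2 of CKB's mean level, 29.6% were higher and 17.0% lower. Near CKMT2's mean level 1.38% were higher and 7.22% lower. Nothing is read from the list counts, since the lists were chosen with earlier results of these data known. Without the library labelled WT replicate 1, higher and lower genes numbered 10 and 3 in the kinase and carrier list, 9 and 5 in the arginine list, 7 and 2 in the methionine list and 2 and 2 in the SLC6 list.

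**Figure D4:**
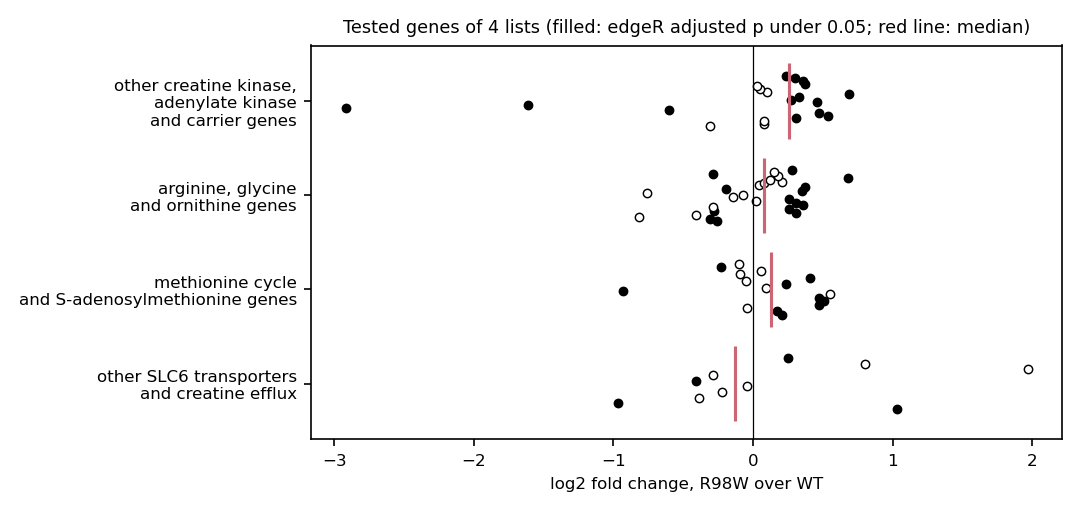
Log2 fold change of R98W over WT for each tested gene of the 4 lists; filled circles are past the edgeR threshold, open circles are not, and the red line is the list's median. The first list has a median of 0.26 and holds the largest fall, AK8 at -2.92.

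The genes whose levels ran most like those of CKB over the 6 libraries, among 9044 protein-coding genes of at least 10 CPM, were TNFRSF10B (Pearson r = 0.998), MAP2K1 (0.998), POP1 (0.998), CRIP2 (0.997) and ADI1 (0.997). They were higher in R98W by 0.17 to 0.57 on the log2 scale, less than CKB. Among the genes most like SLC6A8 were RPL23A (0.981), GPRC5A (0.980) and RPL32 (0.976). These correlations run over 6 libraries in 2 groups and share their scaling factors, so they describe the pattern only.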

How the data were processed

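Gene-level RNA-seq was measured in 6 libraries, grouped by the sample titles. The authors deposited raw read counts per gene, whole numbers with no normalisation; HISAT2 2.1.0, HTSeq 0.11.3, CASAVA 1.8 and hg38 appear, without roles, per the submitters' processing notes. Neither the strand setting nor the annotation is given in the sources used here. Symbols, positions and exon lengths came from GENCODE release 29, which held 58676 rows by identifier; the other 45 are Y copies of pseudoautosomal genes.

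Counts were filtered by filterByExpr (minimum count 10, minimum total 15), scaled by TMM and fitted with edgeR 4.0.16 in R 4.3.3 (glmQLFit, glmQLFTest, all 6 libraries, no covariates), with Benjamini-Hochberg adjustment over all tested genes. SE was taken from the test statistic. CKMT1A and CKMT1B were also summed and refitted. Confidence intervals are at 95%. The code was tested on simulated data. Alternatives were DESeq2 1.42.0, limma-voom (limma 3.58.1), other scalings and filters, the replicate block and each library left out.

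The members and lists were chosen with earlier results of these data known. AK4, AK5, AK7 and a few neighbouring or overlapping genes were named after their values were seen. Named by rule are the 5 called genes of each list with the smallest p and the 5 genes most correlated with CKB and SLC6A8. Some genes that this rule names are not reported here. The labels do not say whether replicates were separate cultures, so errors and p-values cover the spread of these libraries, which may be technical. Replicate libraries of a group differed by more than sampling noise. Promoters are from RefSeq (GRCh38.p14), which matched 6 of the 7 genes, all except GAMT.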

Additional observations from a re-analysis of the deposited data

How the results depend on the processing

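The directions of CKB, GATM, CKMT1B, CKMT1A, SLC6A8 and the CKMT1 sum were the same in the 13 alternatives, with log2 fold changes of 1.09 to 1.26, 0.47 to 0.56, -0.91 to -0.72, -0.85 to -0.40, 0.10 to 0.20 and -0.88 to -0.67. GAMT ran from -0.04 to 0.02 without each library in turn, and turned to 0.01 with DESeq2 size factors and with DESeq2, to 0.02 without WT replicate 1 or R98W replicate 2 and to 0.01 without R98W replicate 1. CKMT2 ran from -0.52 to 0.34 when a library was left out, turning to 0.34 without WT replicate 1 and to 0.24 without R98W replicate 2, and it had too few counts for the filter of 50 counts in 3 libraries. The number of members past the threshold as lower was 2 with the replicate block and 1 to 2 when a library was left out, since CKMT1A then joined CKMT1B.

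Without each library in turn, the called falls were 2 to 5 for the arginine list and 1 to 2 for the methionine list, and for the SLC6 list 0 to 4 rises and 1 to 2 falls. SLC6 falls were 1 with no filter, with the replicate block and with limma-voom. Same-numbered WT and R98W libraries did not deviate alike, with correlations of deviations of -0.0409, -0.0916 and -0.0857. Those of different-numbered libraries ran from -0.0131 to 0.106. Whether libraries shared a culture or batch was not tested. The replicate block called 3205 genes higher and 3678 lower against 3364 and 3839. With the longest transcript as length, CKB was at 22.6 and 50.4 CPM per kilobase in WT and R98W. On counts not divided by length its share was 81.9% and 94.4%. The cause of these moves was not tested, apart from the length, which changes the values by construction. CKMT2 and CKM had few counts, which limits the precision of their values.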
